A study of Mus musculus with 6 samples.

Results

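The Csrnp nuclear protein family consists of 3 genes, Csrnp1, Csrnp2 and Csrnp3, out of 39017 genes in the count tables. They were picked by their gene symbols, and with their counts in these same libraries already known, so their own levels and changes are described without a test. Expression was measured by polyA RNA-Seq in 6 libraries of mouse embryonic stem cells (mESCs) that fall into 3 groups of 2. The untreated group and the auxin group are Pol II degron mESCs, made in the V6.5 line, in which both copies of Polr2a, the gene of RPB1, carry an mAID-EGFP tag at the C-terminus and the plant F-box protein OsTIR1 is encoded at Rosa26. RPB1 is the largest subunit of RNA polymerase II (Pol II), and the mAID tag lets OsTIR1 mark it for degradation once auxin is present. Both degron groups had received 1 μg/ml doxycycline for 12 h, which switches on OsTIR1, and one of them was then given 500 μM of the auxin indole-3-acetic acid (IAA) for 6 h. The degron line is 1 clone, chosen for efficient degradation, so clone and tag cannot be told apart. The third group is wild-type V6.5 mESCs without the tag, whose doxycycline treatment is not stated and whose counts stand in a table of their own, so genotype and preparation cannot be told apart either. All cells were grown on irradiated mouse embryonic fibroblasts with LIF and were passaged 2 times before the experiments. The study describes its sequencing replicates as biological, but the labels do not tie the 2 libraries of a group to separate cultures, so p-values measure the spread between these libraries.

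Csrnp proteins (cysteine-serine-rich nuclear proteins) are nuclear proteins that bind DNA and activate transcription, and the hexamer AGAGTG is their known binding sequence. Csrnp1 is also called Axud1, because it was found as a gene induced by axin, the scaffold of the beta-catenin destruction complex, and it behaves as an immediate early gene in stimulated lymphocytes. Older names of Csrnp2 and Csrnp3 refer to apoptosis induced by TGF-beta, and both are catalogued as regulatory subunits of protein phosphatase 1. In mice the family acts redundantly in development.

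The promoters are shown first, since the treatment removes the polymerase that transcribes from them. Each sequence runs from 250 bases before to 50 bases after a start site and was taken from RefSeq (build GRCm38.p6), which lists 1 such window for Csrnp2, 4 for Csrnp1 and 2 for Csrnp3. RefSeq places the start of Csrnp2 at 100495239, which is inside the gene as GENCODE draws it. Capitals mark the family's own hexamer AGAGTG and the AP-1 heptamer TGACTCA, read on either strand. The window of Csrnp2 (chr15:100495190-100495489, minus strand) and 1 of Csrnp1 (chr9:119984394-119984693, minus strand) are shown because each holds AGAGTG, the second Csrnp1 window (chr9:119982974-119983273, minus strand) because it holds the AP-1 heptamer, and the window of Csrnp3 at the annotated gene start (chr2:65845517-65845816, plus strand) because it holds neither.
Csrnp2: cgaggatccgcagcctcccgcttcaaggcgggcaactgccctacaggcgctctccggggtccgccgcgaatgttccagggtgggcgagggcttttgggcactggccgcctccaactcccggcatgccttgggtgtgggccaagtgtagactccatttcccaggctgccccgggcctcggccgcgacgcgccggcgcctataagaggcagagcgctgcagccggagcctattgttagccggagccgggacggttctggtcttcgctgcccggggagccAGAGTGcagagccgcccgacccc
Csrnp1, window with AGAGTG: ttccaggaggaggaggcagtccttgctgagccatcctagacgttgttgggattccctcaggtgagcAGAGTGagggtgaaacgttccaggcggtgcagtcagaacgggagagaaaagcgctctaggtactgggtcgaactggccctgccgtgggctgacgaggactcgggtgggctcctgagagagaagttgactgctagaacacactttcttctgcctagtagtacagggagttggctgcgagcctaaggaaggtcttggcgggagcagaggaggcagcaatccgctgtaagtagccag
Csrnp1, window with TGAGTCA: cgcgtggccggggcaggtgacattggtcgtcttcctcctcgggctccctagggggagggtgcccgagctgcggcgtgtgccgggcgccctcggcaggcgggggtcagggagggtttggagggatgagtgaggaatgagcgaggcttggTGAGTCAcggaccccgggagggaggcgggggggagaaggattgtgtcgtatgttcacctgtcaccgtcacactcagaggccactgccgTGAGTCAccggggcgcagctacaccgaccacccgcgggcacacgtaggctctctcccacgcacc
Csrnp3: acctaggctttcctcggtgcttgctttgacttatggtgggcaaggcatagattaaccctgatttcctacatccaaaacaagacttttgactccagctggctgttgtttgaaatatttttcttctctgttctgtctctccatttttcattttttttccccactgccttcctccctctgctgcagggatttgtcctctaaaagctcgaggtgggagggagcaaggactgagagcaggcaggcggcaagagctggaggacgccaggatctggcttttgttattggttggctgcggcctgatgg

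In Csrnp2 the hexamer stands in the forward direction, 28 bases after the start site. In the shown Csrnp1 window it stands at position -184, and in another Csrnp1 window (chr9:119984693-119984992) it stands on the reverse strand at -200. No Csrnp3 window holds it. Of 32851 RefSeq promoter windows of this length in the mouse, 16.4% hold AGAGTG on either strand, so the match is a description of these letters and not evidence of binding. TGACTCA was read on the reverse strand at -102 and -14 of the Csrnp1 window and in 5.20% of all windows. The Sp1-type hexamer GGGCGG, present in 35.7% of all windows, was found 5 times in the fourth Csrnp1 window (chr9:119983730-119984029) and once, on the reverse strand, 39 bases after the start of Csrnp2. CCAAT was read on the reverse strand in both Csrnp3 windows, at 28 and at -203, and in 1 Csrnp1 window at -229, against 37.4% of all windows. None of the 7 windows holds TATAAA, 1 form of the TATA box, found in 13.6% of all windows. TGACGTCA, 1 form of the cAMP response element, found in 1.79%, was absent too. The E-box form CACGTG, found in 7.15%, was likewise not read in them. The same held for 1 fixed form of the serum response element, found in 0.064%. Other forms of these elements were not searched, so the presence of the elements in these windows was not tested. The GC content was 69.7% in the Csrnp2 window, 57.7% to 78.3% in the Csrnp1 windows and 48.0% to 49.3% in the Csrnp3 windows.

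In the mm10 annotation (GENCODE vM21), Csrnp1 (ENSMUSG00000032515) lies on the minus strand of chromosome 9 from 119971163 to 119984658, Csrnp2 (ENSMUSG00000044636) on the minus strand of chromosome 15 from 100479570 to 100495488, and Csrnp3 (ENSMUSG00000044647) on the plus strand of chromosome 2 from 65845767 to 66031546. The coding sequences are alike in length, 1749, 1602 and 1791 bases. Of aligned coding bases, 64.6% were identical between Csrnp1 and Csrnp2, 60.1% between Csrnp1 and Csrnp3 and 65.8% between Csrnp2 and Csrnp3. No stretch of 100 exon bases of any member occurs in the sense sequence of another annotated transcript. Reads of the members can thus be told apart from each other, while antisense sequence was not searched. The 3 genes differ more in their 3′ UTRs, which measure 1075 bases in Csrnp1, 2234 in Csrnp2 and 8523 in Csrnp3 against a median of 779 over 21221 coding genes. The pentamer ATTTA, the core of AU-rich elements that are known from short-lived mRNAs, occurs 5, 7 and 23 times in them, against a median of 1. Per kilobase the members hold 4.65, 3.13 and 2.70 such pentamers and the median gene 1.17. Csrnp2 has 1 annotated transcript and overlaps no other gene. Csrnp1 shares 224 exon bases with the antisense gene 1700019L13Rik and Csrnp3 shares 89 with the antisense gene Gm13619, and because the sources do not state how strand was treated in counting, reads there cannot be assigned to one or the other. Gm13619 had 0 counts in all 6 libraries.

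Before the members, the libraries were checked against their labels. Each held 14094022 to 15358714 counts on genes. The 2 libraries of a group were compared by a chi-square per degree of freedom over all well-counted genes, where larger values mean more spread. It was 5.7 in untreated, 2.3 in auxin-treated and 2.6 in wild-type libraries, and both comparisons below use the untreated libraries. All 8 pluripotency markers, among them Pou5f1, Sox2 and Nanog, had counts far above 3 in every library, and their summed level was 3912 to 4496 CPM (counts per library scaled to a common total) in untreated, 3241 to 3486 in auxin-treated and 6677 to 6732 in wild-type libraries. The extraction protocol of the wild-type libraries mentions retinas, but the photoreceptor genes Crx and Rcvrn were at 0 in all 6 libraries and the 8 retina markers summed to 1.55 to 3.74 CPM. The 8 neuron markers summed to 54.9 to 66.6 CPM. Dcx was at 0 throughout, while Tubb3 had 405 to 557 counts, Nefl 108 to 193 and Map2 101 to 154. The 8 fibroblast markers, which the feeder cells can contribute, summed to 175 and 176 CPM in untreated, 195 and 227 in auxin-treated and 138 and 141 in wild-type libraries. Col1a1 had 915 to 1380 counts and Col1a2 567 to 1413, while Lum was at 0 in 5 libraries and at 1 count in the other. The part of feeder cells in the differences described here was not tested. Polr2a itself, whose protein and not mRNA is the target of auxin, had 6623 and 6568 counts in untreated, 10396 and 10663 in auxin-treated and 6866 and 7129 in wild-type libraries, so its mRNA says nothing on the degradation.

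All 3 members were expressed in every library. Csrnp1 was counted 786 and 656 times in the untreated libraries, 841 and 836 times in the auxin-treated ones and 475 and 405 times in the wild-type ones. Csrnp2 was counted 322 and 313 times in untreated, 848 and 832 times in auxin-treated and 392 and 403 times in wild-type libraries. Csrnp3 was counted 238 and 206 times in untreated, 238 and 215 times in auxin-treated and 204 and 214 times in wild-type libraries. Csrnp2 thus stood out in the auxin libraries, Csrnp1 was lowest in the wild-type libraries, and the Csrnp3 counts stayed between 204 and 238, with CPM levels that overlapped between all groups. In bulk RNA, a change in the share of cells that express a gene and a change in RNA per cell cannot be told apart.

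On a common scale (CPM after TMM normalization over the 6 libraries), the mean level of Csrnp2 was 22.0 CPM ± 0.664 (SD, n = 2) in untreated, 53.4 ± 0.363 in auxin-treated and 27.9 ± 0.363 in wild-type cells. The level of Csrnp1 was 49.97 CPM ± 6.87 in untreated, 53.4 ± 0.856 in auxin-treated and 30.9 ± 3.67 in wild-type cells. That of Csrnp3 was 15.4 CPM ± 1.72, 14.4 ± 0.743 and 14.7 ± 0.400 in the same order. The untreated libraries were closer together in Csrnp2, at 22.5 and 21.5 CPM, than in Csrnp1, at 54.8 and 45.1, and the auxin libraries of Csrnp1, at 52.7 and 54.0, fell between the latter.

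**Figure D1:**
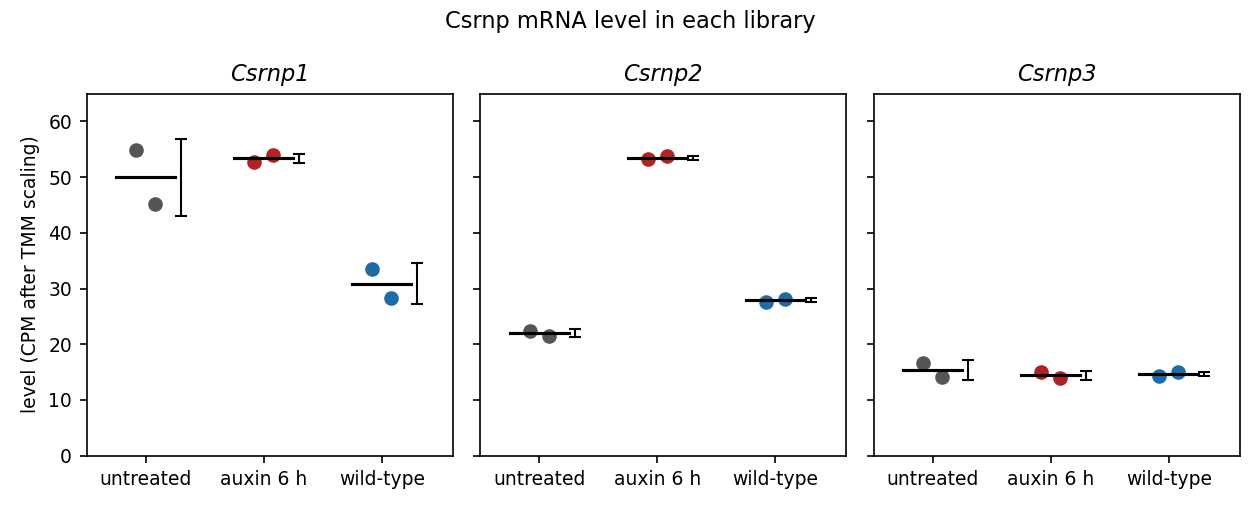
Level of each Csrnp mRNA in every library, in CPM after TMM scaling (y axis), by group (x axis). Points are libraries, horizontal bars are group means and the vertical bars beside them are the mean ± SD (n = 2). The auxin libraries of Csrnp2, at 53.2 and 53.7 CPM, lie above its other libraries, which run from 21.5 to 28.1 CPM.

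To compare the members with each other, levels were divided by the length of the merged exons. Per kilobase, Csrnp1 was the most abundant member in each group, with 14.4 CPM per kb in untreated, 15.4 in auxin-treated and 8.89 in wild-type cells. Csrnp2 came second, with 5.03, 12.2 and 6.37, and Csrnp3 last, with 1.25, 1.17 and 1.19. This order held in each of the 6 libraries, without overlap between the members within a group. The closest neighbours were Csrnp1 and Csrnp2 in wild-type cells, at 8.14 to 9.64 and 6.31 to 6.43 CPM per kb, and in auxin-treated cells, at 15.2 to 15.5 and 12.2 to 12.3.

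Ratios between members within a library need no normalization between libraries. The counts of Csrnp2 per kilobase were 0.325 and 0.379 of those of Csrnp1 in the untreated libraries, 0.800 and 0.790 in the auxin-treated ones and 0.655 and 0.790 in the wild-type ones. Csrnp2 relative to Csrnp3 was 3.81 and 4.28 per kilobase in untreated, 10.05 and 10.91 in auxin-treated and 5.42 and 5.31 in wild-type libraries. Both ratios were therefore lowest in the untreated cells. Csrnp3 relative to Csrnp1 was 0.0852 and 0.0884 in untreated, 0.0797 and 0.0724 in auxin-treated and 0.121 and 0.149 in wild-type libraries, highest in the wild-type cells, where Csrnp1 was low. Summed over the 3 members, 93.9 and 80.8 CPM were measured in untreated, 121 and 122 in auxin-treated and 75.5 and 71.4 in wild-type libraries.

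**Figure D2:**
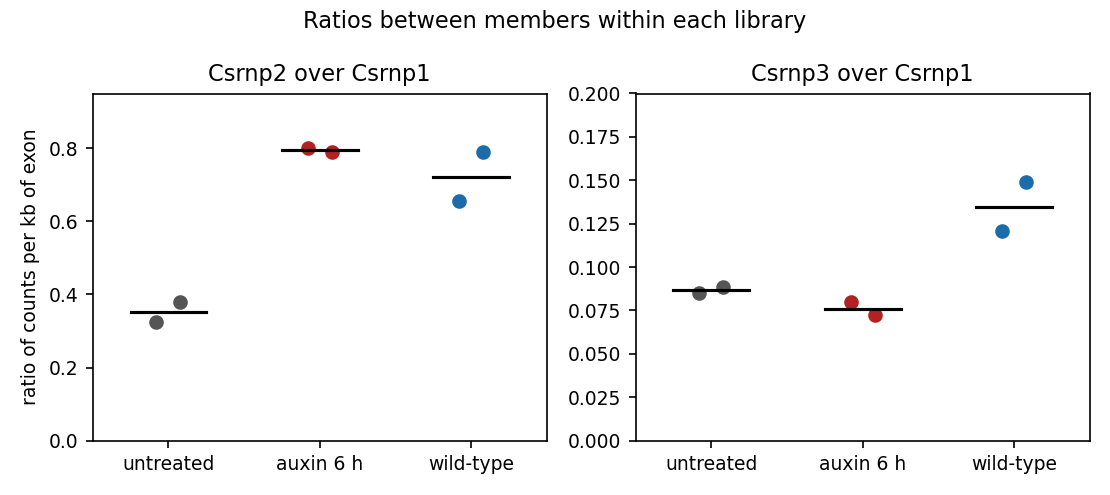
Ratio of counts per kilobase of exon (y axis) of Csrnp2 over Csrnp1 (left) and Csrnp3 over Csrnp1 (right) in each library, by group; the y axes differ. Points are libraries and horizontal bars are group means (n = 2). The left ratio is 0.325 and 0.379 in the untreated libraries and at least 0.655 in the others.

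The first comparison set auxin-treated against untreated degron cells and thus asks which mRNAs differ in level after auxin. No library of untagged cells is labelled as auxin-treated, so auxin itself and the loss of RPB1 cannot be told apart. The level of Csrnp2 was 2.46-fold higher after auxin, which is 1.30 on the log2 scale with a standard error (SE) of 0.09. The log2 change of Csrnp1 was 0.11 (SE 0.09) and that of Csrnp3 -0.08 (SE 0.13). In the fit of 16128 genes, with calls made by the edgeR quasi-likelihood test where its adjusted p was under 0.05, the calls included 1 of the 3 members (Csrnp2), and 4.20% of all genes were called, 2.56% higher and 1.64% lower. The groups did not overlap in CPM for 1 of the 3 members, again Csrnp2, and for 50.8% of all genes, 22.3% higher and 28.4% lower. Since the members were chosen with these counts known, the call is no test of Csrnp2, and the shares serve only as the background. An absolute change larger than that of Csrnp2 was found in 2.11% of the tested genes, while 56.2% exceeded Csrnp1 and 69.1% exceeded Csrnp3. Of 9356 genes averaging 200 counts or more, 3 had a higher log2 fold change than Csrnp2. These 3, named after their values were seen, were Nrarp (1.66), a Notch target that limits Notch signalling, Gm26917 (1.56), a non-coding transcript, and Slc5a3 (1.54), a myo-inositol transporter.

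The log2 change of Csrnp2 lay between 1.13 and 1.33 over the 15 settings run, the reported one included. Csrnp1 rested on the untreated libraries, the group with the widest spread between its 2 libraries over all genes. Its log2 fold change was 0.26 without untreated replicate 1 and -0.025 without untreated replicate 2. Scaling to the 13 mitochondrial mRNAs lowered the median of all genes by 0.17 on the log2 scale and turned the sign of Csrnp1 to -0.07, which is 0.10 above that median.

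**Figure D3:**
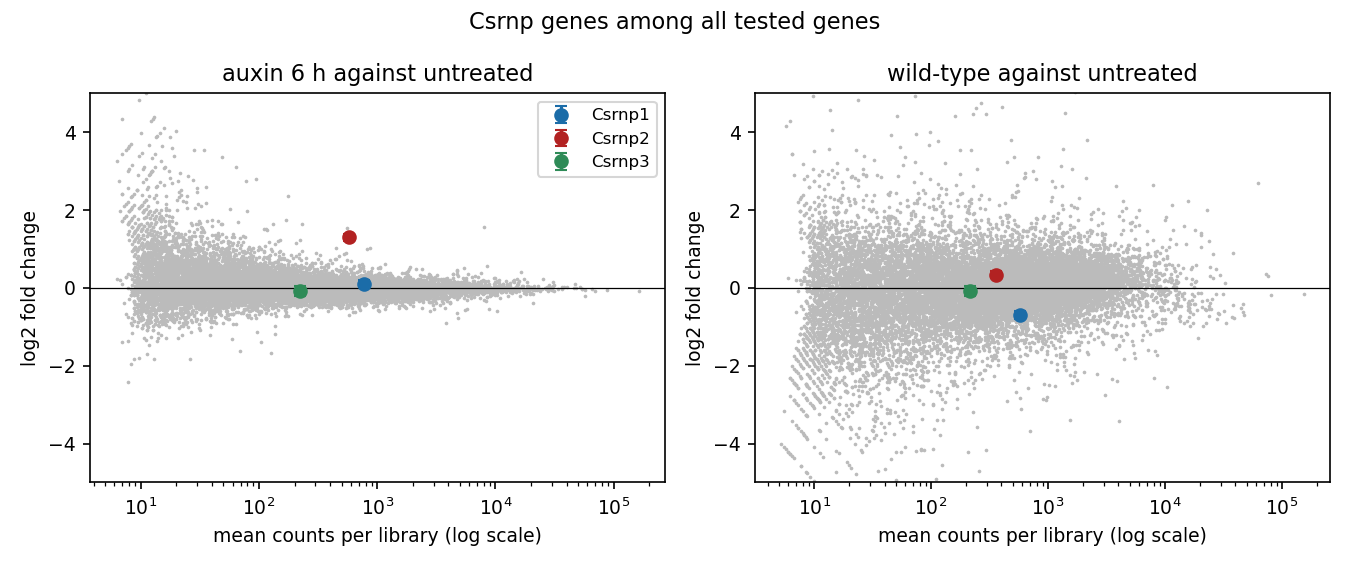
Log2 fold change against untreated cells (y axis) by mean counts per library (x axis, log scale) for all tested genes (grey) and the Csrnp members (coloured; their standard errors are smaller than the markers), after auxin (left) and in wild-type cells (right). Fold changes beyond 5 in size, 5 genes on the left and 55 on the right, lie outside the axes. On the left Csrnp2, at 1.30, is above nearly all genes with as many counts, and on the right the members, at -0.70, 0.33 and -0.08, lie within the range of all genes; scaling to mitochondrial mRNAs turns 0.33 to -1.76.

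The second comparison set wild-type against untreated degron cells, the same untreated libraries as above, and asks how the tagged line differs from its parent before auxin. Csrnp1 was lower in wild-type cells, at 0.615 of the untreated level (log2 change -0.70, SE 0.11). Csrnp2 was 1.26-fold higher (log2 change 0.33, SE 0.09), and Csrnp3 was at -0.08 (SE 0.13) on the log2 scale. The calls included 2 of the 3 members, Csrnp1 and Csrnp2, in a comparison where 60.6% of 15778 genes were called, 29.9% higher and 30.7% lower. The same 2 of 3 did not overlap between groups, and neither did 81.0% of all genes, 40.5% in each direction. The members lay within the range of all genes, as 31.0% of genes had a larger absolute change than Csrnp1, 59.1% than Csrnp2 and 90.0% than Csrnp3. Of 9255 genes averaging 200 counts or more, 862 had a lower log2 fold change than Csrnp1.

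Here the direction of the Csrnp2 value turned with 1 of the scalings run, that to the mitochondrial mRNAs. With these mRNAs, which were more abundant in the wild-type libraries, the median of all genes moved to -2.10 and Csrnp2 to -1.76, still 0.34 above that median. At least mt-Co2 among them was uneven between wild-type libraries, with 2715 and 1022 counts there and 229 and 333 in untreated ones. Csrnp2 was not called without wild-type replicate 2, at 0.33, or with DESeq2, at 0.34. Csrnp1 was at -2.81 with the mitochondrial scaling and between -0.84 and -0.56 in the others.

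Genes with similar profiles were sought by the root mean square (RMS) difference of centred log2 CPM over the 6 libraries, among 12416 genes with at least 50 counts on average. The profile of Csrnp2 had few counterparts, as no gene lay within 0.1 log2 units and 7 within 0.2. Its closest genes were Shisa2 (0.124), Zbtbd6 (0.148), Gm11620 (0.174), Gm26917 (0.186) and Fam46c (0.190). Shisa2, an endoplasmic reticulum protein that retains Wnt and FGF receptors, was counted 80 and 92 times in untreated, 211 and 222 times in auxin-treated and 108 and 127 times in wild-type libraries. Fam46c, a cytoplasmic poly(A) polymerase, was counted 34 and 33, 75 and 105, and 47 and 53 times. Except for Gm26917, these genes had lower counts than Csrnp2 and averaged under 200. When a mean of 200 counts was required, 1 of the 5 remained among the closest. The filter itself removed the others, so this is no test of the match.

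Csrnp1 had 131 genes within 0.1 and Csrnp3 had 842. The closest to Csrnp1 were Sdc3 (0.037), which encodes the heparan sulfate proteoglycan syndecan-3, Ptpn21 (0.045), a tyrosine phosphatase, Mthfsd (0.049), CN725425 (0.050) and Fbxw9 (0.055), an F-box protein. Sdc3 was counted 446 and 401 times in untreated, 479 and 481 times in auxin-treated and 281 and 235 times in wild-type libraries. The closest to Csrnp3 were Recql (0.025), a DNA helicase, Tmed7 (0.033), a cargo receptor of the early secretory pathway, Cnot7 (0.035), a deadenylase of the CCR4-NOT complex, Rfxap (0.035), a subunit of the RFX complex, and Ppp1r12b (0.035), a myosin phosphatase subunit. A gene that hardly changes has many genes like it, so these lists describe the shape of the profile only.

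The genes next to the members were examined on the same data, since position played no part in choosing the members. Within 200 kb of the 3 genes lie 42 genes of the table, of which 21 were tested after auxin. The edgeR test called 0 of these 21, with 3 at an unadjusted p under 0.05, and DESeq2 also called 0. Since 4.20% of all genes were called in this comparison, a count of 0 among 21 is close to the background. Letmd1, a mitochondrial inner membrane protein gene that ends 0.406 kb from the 3′ end of Csrnp2, was counted 254 and 216 times in untreated and 252 and 273 times in auxin-treated libraries (log2 change 0.06, SE 0.13). Tfcp2, a transcription factor gene 2.52 kb away on the promoter side, was counted 399 and 386 times in untreated and 373 and 368 times in auxin-treated libraries (log2 change -0.19, SE 0.09). Both flanking genes thus overlapped with or lay slightly below their untreated counts where Csrnp2 was 2.46-fold higher. The largest value among the 11 tested neighbours of Csrnp2 was 0.99 (SE 0.39) for the non-coding gene C330013E15Rik, which had 10 and 11 counts in untreated and 25 and 20 in auxin-treated libraries. The 7 tested neighbours of Csrnp1 ranged from -0.21 to 0.43 and the 3 of Csrnp3 from -0.12 to 0.88, the latter for the sodium channel gene Scn2a1. Scn2a1 had few counts, 5 and 7 in untreated and 13 and 11 in auxin-treated libraries (SE 0.50). Without untreated replicate 1 the edgeR test called 2 neighbours lower.

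In wild-type cells 9 of 21 tested neighbours were called, 3 higher and 6 lower, against 60.6% of all genes. Letmd1 was at -0.95 (SE 0.16, edgeR adjusted p = 0.000353) and Tfcp2 at -0.22 (SE 0.09, edgeR adjusted p = 0.0585), while Csrnp2 between them was at 0.33. Next to Csrnp1, the myelin gene Mobp was at -2.10, the ribosomal protein gene Rpsa at -0.74, and Wdr48, a cofactor of deubiquitinases, was at 0.46. Next to Csrnp3, the glycosyltransferase gene Galnt3 was at -1.28. Without untreated replicate 2, 5 neighbours were called higher in place of 3, and with the mitochondrial scaling all 21 were called lower.

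**Figure D4:**
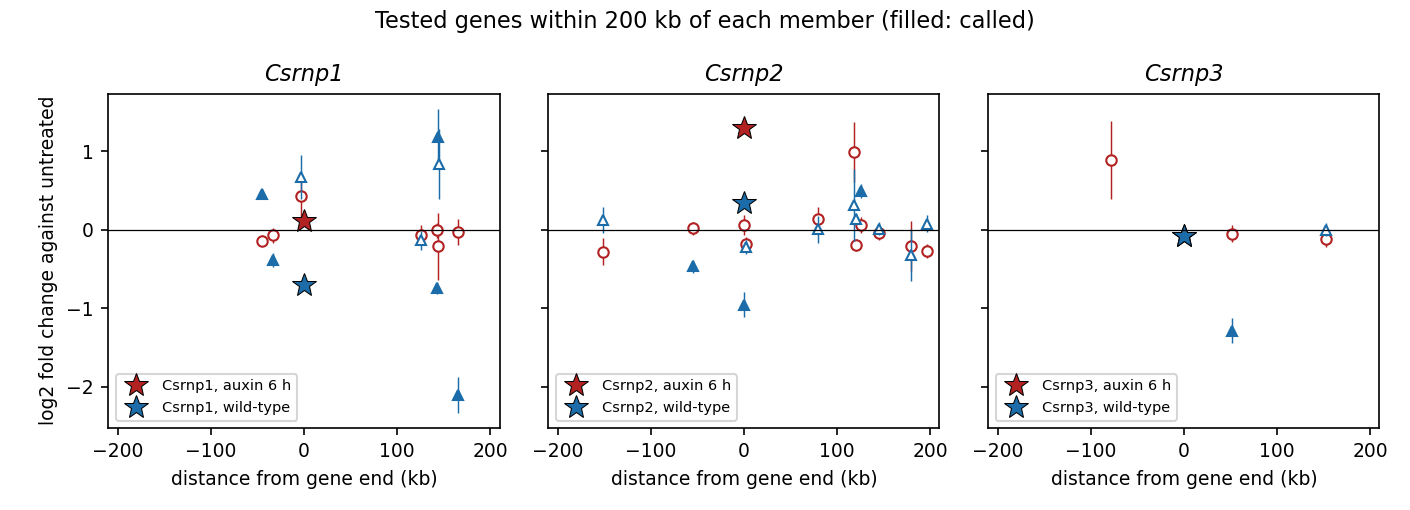
Log2 fold change against untreated cells (y axis, with standard error) of the tested genes within 200 kb of each member, by the distance in kb from the nearer end of the member, negative towards lower coordinates (x axis). Circles are the auxin and triangles the wild-type comparison, filled symbols were called, and stars are the members. None of the circles is filled, and Csrnp2 (1.30) lies above its 11 tested neighbours (-0.28 to 0.99); the triangles would all be negative with mitochondrial scaling.

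The pathways that gave the family its names were followed through 5 gene lists. Earlier results on immediate early genes in these libraries were known when the lists were drawn up, and the counts below are descriptions beside the share of all genes called. The immediate early genes, which respond within minutes to stimuli without new protein synthesis, were the list with the most calls after auxin. Of 25 genes 22 were tested, and 5 were called higher and 0 lower, in a comparison where 2.56% of all genes were called higher and 1.64% lower. DESeq2 called 4 of them higher and 0 lower. The list median was 0.22 against -0.00038 for all genes. Fos was counted 60 and 60 times in untreated and 191 and 213 times in auxin-treated libraries (log2 change 1.65, SE 0.17, edgeR adjusted p = 0.000284). Its relative Fosb was counted 18 and 17 and then 56 and 70 times (log2 fold change 1.74, edgeR adjusted p = 0.00623). Jun, their partner in the AP-1 dimer, was counted 307 and 291 and then 466 and 471 times (log2 fold change 0.54, edgeR adjusted p = 0.00831). The small GTPase gene Rhob, at 0.60, and the stress response gene Gadd45b, at 0.52, also rose. Fos was above untreated in the wild-type libraries too, at 218 and 175 counts (log2 change 1.72, SE 0.18). Fosb, Jun, Rhob and Gadd45b were not called in the wild-type comparison. Jun and Gadd45b were named after their values were seen. Csrnp1, the member known as an immediate early gene and the one with the AP-1 heptamer shown above, had 0.11. The count of 5 became 10 without untreated replicate 1, with 1 gene called lower, stayed 5 without untreated replicate 2, with 3 called lower, and became 3 without auxin-treated replicate 2. It was 9 with the replicate number as a block and 2 with mitochondrial scaling or without a filter. Egr2, Egr3 and Nr4a3 had too few counts to be tested, at most 13 in any library.

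The other lists had few calls after auxin, beside the 4.20% of all genes called. Among 21 genes of the TGF-beta pathway 0 were called higher and 1 lower, Tgif1, a corepressor of SMAD proteins, at -0.36 (SE 0.07, edgeR adjusted p = 0.0135), and the list median was 0.09. Among 20 genes of the axin and beta-catenin pathway the edgeR test called 0 in either direction, with 4 at an unadjusted p under 0.05, and DESeq2 called 0 as well, with a list median of -0.03. Among 22 subunits of protein phosphatase 1, Ppp1r15b, which directs the phosphatase to eIF2-alpha, was the 1 called gene, at -0.41 (SE 0.06, edgeR adjusted p = 0.00512), and the median was -0.04. Of 15 BCL2 family genes 3 were called lower and 0 higher, with a median of 0.03. DESeq2 called 1 gene lower in the TGF-beta list, 2 in the phosphatase list and 1 in the BCL2 list. The anti-apoptotic Mcl1 was at -0.33 (edgeR adjusted p = 0.0217), and the pro-apoptotic Bid at -0.32 (edgeR adjusted p = 0.0361) and Hrk at -0.40 (edgeR adjusted p = 0.0447). The calls of these lists depend on single libraries. Without auxin-treated replicate 1, and likewise without replicate 2, the TGF-beta, phosphatase and BCL2 lists had 0 calls, as they did with mitochondrial scaling and without a filter. Without untreated replicate 1, in contrast, the TGF-beta list had 6 genes called higher and 2 lower, the phosphatase list 2 and 2, and the axin list 1 and 3. Without untreated replicate 2 the phosphatase list had 2 called lower and the axin list 1.

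In wild-type cells each list held called genes in both directions, and the list medians of the log2 change were -0.13 (immediate early), -0.15 (TGF-beta), -0.06 (axin), -0.06 (phosphatase) and -0.43 (BCL2) against -0.0096 for all genes. The counts stand beside the 60.6% of all genes called, 29.9% higher and 30.7% lower, and are no result about the lists. Of the 22 immediate early genes 6 were higher and 9 lower. Egr1, a zinc finger transcription factor, was at 3.36 (SE 0.08, edgeR adjusted p = 2.04e-10), with 151 and 143 counts in untreated and 1477 and 1525 in wild-type libraries. The kinase gene Sgk1 was at 2.02 and the synaptic gene Arc at 1.26, while the stress-induced factor Atf3 was at -1.89, Maff at -0.59 and the MAP kinase phosphatase gene Dusp1 at -0.58. Csrnp1 was at -0.70, in a comparison where 30.7% of all genes were called lower. The TGF-beta list had 5 genes higher, among them the inhibitory Smad7 (1.75), Pmepa1 (0.78) and Skil (0.74), and 7 lower, among them the receptor gene Tgfbr2 (-1.48), the ligand gene Tgfb2 (-1.28) and the target gene Tgfbi (-1.25).

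Against the same 60.6% of all genes, the axin and beta-catenin list was split in wild-type cells, with 6 genes above and 6 below their untreated level. Apc, a scaffold of the destruction complex, was at 0.51, and the tankyrase gene Tnks2 and the co-receptor gene Lrp5 were both at 0.32. The Wnt targets Sp5 and Nkd1 were at -1.82 and -1.05, with Tnks at -0.22. Sp5 had few counts, 27 and 45 in untreated and 10 and 10 in wild-type libraries. Among the 8 genes of this list not called were Axin2, at -0.0056, and Lef1, at -0.51. The protein phosphatase 1 list had 7 higher and 5 lower. Its regulatory subunits Ppp1r10 and Ppp1r7 were at 1.73 and 0.77, Ppp1r15a was at -0.76, and of the catalytic subunits Ppp1cb was at 0.34, Ppp1ca at -0.34 and Ppp1cc at -0.27. The BCL2 list had 4 higher and 9 lower, with a median of -0.43. The pro-apoptotic Bok (1.13), Bmf (0.66) and Pmaip1 (0.56) were higher, and Hrk (-2.26), the anti-apoptotic Bcl2l1 (-0.98) and the pro-apoptotic Bax (-0.72) lower. With mitochondrial scaling, which shifts all genes as given above, 1 gene of the 5 lists, in the immediate early list, stayed higher. Without wild-type replicate 1, and likewise without replicate 2, the axin list had 4 genes higher and 3 lower, and the phosphatase list had 3 and 2 genes lower in place of 5.

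**Figure D5:**
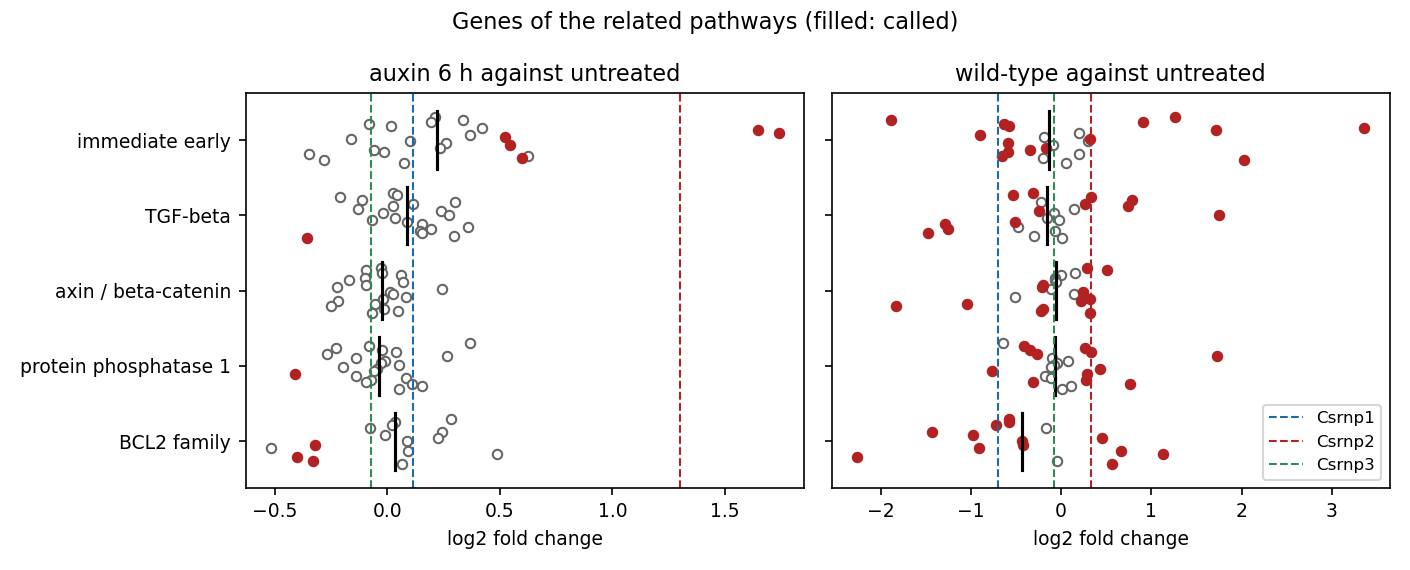
Log2 fold change against untreated cells (x axis) of the tested genes of 5 gene lists (rows), after auxin (left) and in wild-type cells (right). Filled points were called at an edgeR adjusted p under 0.05, open points were not, black bars are list medians and dashed lines are the Csrnp members. After auxin the line of Csrnp2 (1.30) is passed only by Fos (1.65) and Fosb (1.74); in wild-type cells the called genes lie on both sides of 0, and with mitochondrial scaling 1 of them stays on the right.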

How the data were processed

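PolyA RNA-Seq libraries of 3 groups (untreated, auxin-treated and wild-type mESCs, 2 each) were used. The authors aligned paired reads to mm10 with HISAT2 2.1.0, counted them per GENCODE gene with salmon and htseq-count, and deposited raw counts, not normalized. The annotation release and strand setting are not given in the sources used here. The deposited tables also hold the authors' DESeq2 fold changes and p-values, which were not used, and 2 columns of per-sample values that match no sample. No spike-in is named, so all changes are relative to the other mRNAs of a library.

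The tests on counts used the quasi-likelihood functions of edgeR 4.0.16 under R 4.3.3 (glmQLFit, glmQLFTest, TMM, filterByExpr with a minimum count of 10, Benjamini-Hochberg adjustment, call at an adjusted p under 0.05), each comparison on its own 4 libraries, after a test on simulated data. Standard errors are the fold change divided by the root of F. Levels are CPM after TMM over 6 libraries. Exon lengths, 3′ UTRs and neighbours came from GENCODE vM21, to which 37607 of 39017 genes matched, and promoters from RefSeq. The members and lists were chosen with earlier results of these data known. Named were the members, Polr2a, the 5 closest profiles, up to 3 called genes per list and direction by p, tested neighbours and markers. After their values were seen, Nrarp, Slc5a3, Jun, Gadd45b, Axin2, Lef1 and mt-Co2 were named as well. Alternatives were DESeq2 1.42.0, other scalings, filters, dispersions and fits, a replicate block, and each library left out in turn. At 14094022 to 15358714 counts a library, each member had 200 or more counts in every library. Counting error and the spread between 2 libraries both limit precision.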

Additional observations from a re-analysis of the deposited data

How the results depend on the processing

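The log2 fold change of Csrnp2 after auxin kept its direction in the 15 settings run (1.13 to 1.33), and so did that of Csrnp1 in wild-type cells (-2.81 to -0.56). The calls of members are given as descriptions, since the members were chosen with these counts known. Leaving out 1 library each gave -0.025 to 0.26 for Csrnp1 after auxin, past the threshold without untreated replicate 1, and 0.30 to 0.36 for Csrnp2 in wild-type cells, not past it without wild-type replicate 2. Csrnp2 in wild-type cells was 0.34 and not past the threshold with DESeq2, and with mitochondrial scaling it was -1.76 and Csrnp3 -2.18, while that scaling moved the median of all genes to -2.10. The cause was not tested.

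The number of genes called after auxin, 677, was 236 with DESeq2, 219 with mitochondrial scaling, 55 without a filter, 432 with at least 10 counts in every library, 1235 with all 3 groups in one fit, and 179 to 2724 with 1 library left out (2724 and 1114 without untreated replicate 1 and 2, 184 and 179 without auxin-treated replicate 1 and 2). The number called in wild-type cells, 9555, was 15308 with mitochondrial scaling and 7532 to 9570 with 1 library left out. The share of calls that were higher after auxin was 61.0% in the reported fit, 76.3% with mitochondrial scaling, 78.2% without a filter and 45.9% with all 3 groups, and in wild-type cells it was 49.3% and, with mitochondrial scaling, 0.477%. With the replicate number as a block, 1930 genes were called after auxin and 9689 in wild-type cells, with Csrnp2 at 1.30 after auxin. The deviations of same-numbered libraries correlated with r = 0.0951 between untreated and auxin-treated and -0.0368 between untreated and wild-type libraries over 12416 genes, so the libraries were taken to share only a number and not as pairs. Of 318 counts of list calls, neighbour calls and shared closest profiles under the alternatives, 251 were within 1.5 times the reported count and 67 were not. The 251 include counts of 0 that stayed at 0, so this tally does not measure how stable the calls are. With 1 library left out, the lone library of a group is assumed to vary like those of the other group.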
